A study of Mus musculus with 51 samples.

Results

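The change in acetylation of histone H3 at lysine 27 (H3K27ac) between astrogliogenic neural precursor cells (aNPC) and early astrocytes (eA) was taken from the H3K27ac peak lists of both stages. Peaks on chromosomes 1 to 19 were sorted by overlap alone: an aNPC peak that shared no base with an eA peak was called lost, an eA peak that shared no base with an aNPC peak was called gained, and every other peak was called kept. By this rule 33244 of the 77553 aNPC peaks were lost and 35594 of the 81348 eA peaks were gained, among 803622 peaks in the 6 lists of both marks and all stages. The cells were mouse cells of the strain background C57/BL-6, derived in vitro from embryonic stem cells. The aNPC were grown in DMEM-F12 medium with N2, EGF and FGF-2, and the eA were the same cells after 1 day in DMEM with FBS and leukemia inhibitory factor (LIF). Medium, serum and growth factors thus changed together between the groups and cannot be told apart. No gene was altered in either group. For each stage 2 replicates were sequenced and merged before the peaks were called, so each stage is 1 list, no replicate error exists, and no difference between the stages was tested. Intervals are 95% Wilson intervals of a share of peaks and cover counting error over peaks only. Whether different cell types in the cultures or different acetylation per cell set a peak cannot be told apart in such pooled cells. Of the defining astrocyte genes, Gfap had H3K27ac peaks at both stages, with a promoter summit at 13.8 times the background in aNPC and 119 times in eA.

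H3K27ac is laid down by the acetyltransferases CBP and p300 on the nucleosomes that flank active enhancers and promoters, and it is removed by histone deacetylases when a site falls silent. Enhancers often carry monomethylation of histone H3 at lysine 4 (H3K4me1) before they are acetylated and for some time after, which is why both marks are read together. In neural precursors EGF and FGF-2 signal through the MAPK cascade and sustain division, and their withdrawal with cytokines of the LIF family, which signal through gp130, JAK kinases and STAT3, starts astrocyte differentiation.

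Single peaks carry the sequence under the comparison, and those with the highest −log10 q are shown first. Each is a stretch of 200 bases around the summit, on the plus strand of the mm9 genome, with the matches of the motifs searched here in capitals. The first pair holds the strongest lost and gained peaks of all genes. The rest are the strongest peaks at the genes of astrocytes (Cbs, Clu), of LIF signalling (Socs3, Osmr), of EGF and FGF signalling (Spred2, gained) and of neural progenitors (Msi2).
Pck2, lost, chr14:56158672-56158871: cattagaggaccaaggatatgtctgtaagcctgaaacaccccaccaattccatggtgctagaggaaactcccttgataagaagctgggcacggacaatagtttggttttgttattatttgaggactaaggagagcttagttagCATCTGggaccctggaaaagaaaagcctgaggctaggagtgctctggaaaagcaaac
Rpp38, gained, chr2:3250056-3250255: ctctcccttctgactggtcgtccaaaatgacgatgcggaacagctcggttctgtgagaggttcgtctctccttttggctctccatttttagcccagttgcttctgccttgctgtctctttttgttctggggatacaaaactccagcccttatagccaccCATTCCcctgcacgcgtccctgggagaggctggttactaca
Cbs, lost, chr17:31775784-31775983: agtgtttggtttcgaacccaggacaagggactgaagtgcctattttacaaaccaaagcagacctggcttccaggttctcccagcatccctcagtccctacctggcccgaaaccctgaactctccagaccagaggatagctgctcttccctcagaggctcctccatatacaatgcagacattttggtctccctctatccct
Clu, gained, chr14:66590187-66590386: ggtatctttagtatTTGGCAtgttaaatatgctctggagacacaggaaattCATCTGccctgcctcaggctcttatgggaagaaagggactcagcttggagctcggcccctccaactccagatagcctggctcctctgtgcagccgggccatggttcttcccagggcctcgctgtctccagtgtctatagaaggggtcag
Socs3, lost, chr11:117797485-117797684: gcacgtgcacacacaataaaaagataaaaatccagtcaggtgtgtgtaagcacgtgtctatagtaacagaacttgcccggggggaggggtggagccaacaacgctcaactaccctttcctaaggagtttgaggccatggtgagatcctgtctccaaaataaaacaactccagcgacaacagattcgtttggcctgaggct
Osmr, gained, chr15:6823992-6824191: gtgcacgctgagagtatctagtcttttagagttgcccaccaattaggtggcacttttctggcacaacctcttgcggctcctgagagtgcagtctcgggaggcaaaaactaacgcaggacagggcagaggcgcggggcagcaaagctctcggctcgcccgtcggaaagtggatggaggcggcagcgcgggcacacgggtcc
Spred2, gained, chr11:19817742-19817941: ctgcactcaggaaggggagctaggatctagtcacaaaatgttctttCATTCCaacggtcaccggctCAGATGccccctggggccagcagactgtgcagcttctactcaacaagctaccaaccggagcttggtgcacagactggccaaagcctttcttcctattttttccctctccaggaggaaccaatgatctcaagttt
Msi2, lost, chr11:88364868-88365067: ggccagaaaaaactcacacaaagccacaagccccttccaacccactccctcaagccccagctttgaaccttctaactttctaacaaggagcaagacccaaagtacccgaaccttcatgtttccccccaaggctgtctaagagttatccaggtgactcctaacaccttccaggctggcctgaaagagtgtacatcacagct
Msi2, gained, chr11:88564100-88564299: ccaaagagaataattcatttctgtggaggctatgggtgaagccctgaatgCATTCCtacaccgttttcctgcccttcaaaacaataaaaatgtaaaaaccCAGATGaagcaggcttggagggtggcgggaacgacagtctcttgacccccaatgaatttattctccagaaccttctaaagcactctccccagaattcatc

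The summit of an H3K27ac peak lies on acetylated nucleosomes beside the bound site, and 4 of these windows held no match at all. Motif matches differed more between lost and gained peaks farther from the summit, as described with the motif counts. These stretches of 100 bases, chosen after their values were seen, show matches inside lost or gained peaks, at any distance from the summit. The match is in capitals. They are AP-1 sites at the tallest gained peaks of Socs3 and Aldh1l1 and a STAT site at the tallest gained peak of Apoe. The last is an ATF4 response element in the lost peak at the promoter of Nupr1. The gained peaks of Socs3 lay as close as 59 bp to an aNPC peak.
Socs3, AP-1, chr11:117838190-117838289: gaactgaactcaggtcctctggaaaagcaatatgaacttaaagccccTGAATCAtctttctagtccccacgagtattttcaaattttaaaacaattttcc
Aldh1l1, AP-1, chr6:90510456-90510555: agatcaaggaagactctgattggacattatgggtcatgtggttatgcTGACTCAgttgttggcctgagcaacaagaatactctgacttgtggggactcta
Apoe, STAT, chr7:20286234-20286333: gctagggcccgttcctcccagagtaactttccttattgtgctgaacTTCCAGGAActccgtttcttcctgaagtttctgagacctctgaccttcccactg
Nupr1, ATF4 response element, chr7:133769041-133769140: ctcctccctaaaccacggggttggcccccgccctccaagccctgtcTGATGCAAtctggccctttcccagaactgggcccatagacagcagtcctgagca

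The stages exchanged over 40% of their peaks and fewer of their bases. Lost peaks made up 42.9% of the aNPC list (95% interval 42.5–43.2) and covered 12.7 Mb, which was 28.6% of its bases. Gained peaks made up 43.8% of the eA list (43.4–44.1) and covered 12.4 Mb, or 28.8% of its bases. Kept peaks numbered 44309 in aNPC and 45754 in eA, and the bases shared by both lists came to 24.4 Mb, 38.5% of all bases covered at either stage. Lost and gained peaks were small: their median widths were 291 and 259 bp, against 609 bp for kept peaks in aNPC and 564 bp in eA. Their summits were low as well. The number of reads over each summit was worked out from the fold and p-value in the lists, and the height is that number divided by the background of the same list (4.35 reads in aNPC and 3.74 in eA). The median height was 5.75 times the background for lost peaks and 5.88 times for gained peaks, against 12.9 and 12.8 times for kept peaks in aNPC and eA.

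Distal peaks turned over more than promoters. Of the aNPC peaks centred at a promoter (from 1 kb before a coding start site to 100 bp past it) 10.5% were lost, against 22.9% in exons, 43.1% in introns and 54.3% between genes. Among eA peaks, 15.6% of those at promoters, 35.95% of those in exons, 46.5% of those in introns and 50.2% of those between genes were gained. The order of the locations was thus the same at both stages, while promoters, exons and introns were gained more often than lost and intergenic peaks were lost more often than gained. The median distance to the nearest coding start site was 46.4 kb for lost peaks and 28.7 kb for gained peaks, compared with 13.5 kb for kept peaks in aNPC and 12.8 kb in eA. The shares also varied with height. Both lists were cut into 10 bins of equal size in order of height. In the lowest bin of the aNPC list 73.9% of the peaks were lost, and in the highest 5.98% were. For eA the gained share went from 71.5% in the lowest bin to 3.98% in the highest.

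**Figure D1:**
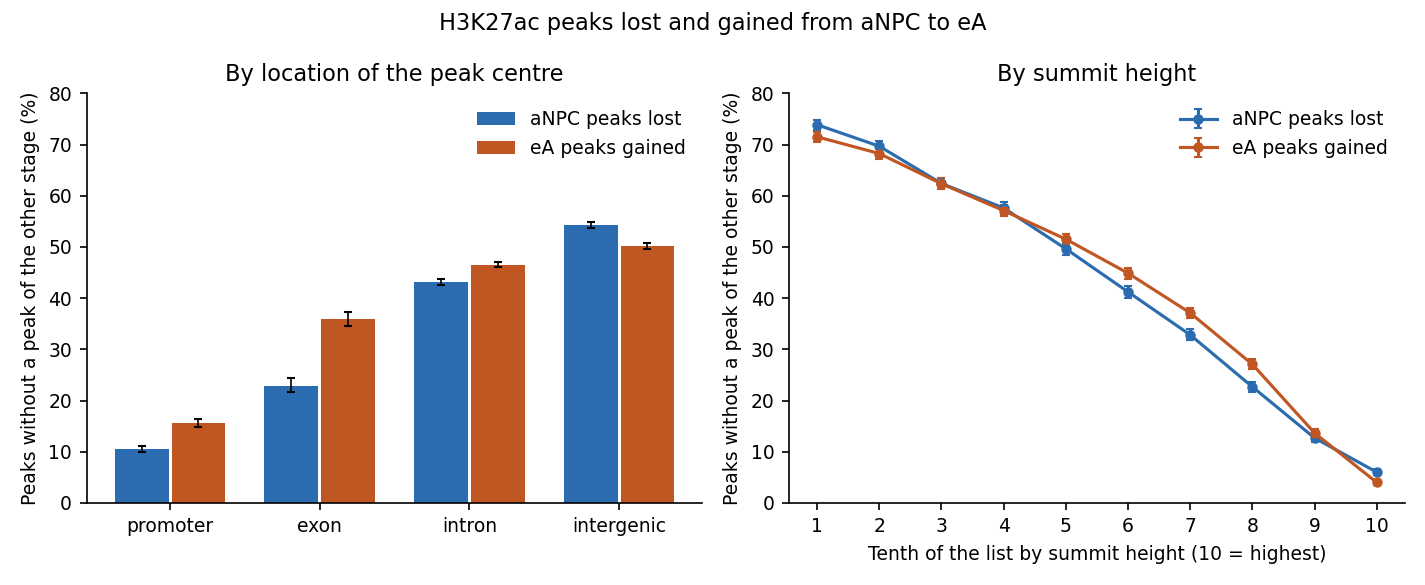
The left plot gives the share of aNPC peaks lost and of eA peaks gained (%) by the location of the peak centre, and the right plot by 10 bins of each list in order of summit height, with 95% Wilson intervals as error bars. Promoters had the lowest shares (10.5% lost, 15.6% gained), and both curves descend from 73.9% and 71.5% in the lowest bin to 5.98% and 3.98% in the highest.

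A missing call sets only a bound on the change in height. If the site of a lost peak had kept its height, scaled to the background of the eA list, it would have been called there in 99.88% of cases, and a gained peak would have been called in aNPC in 99.99% (35590 of 35594). With the height divided by 2, 15.9% of the lost peaks and 29.7% of the gained peaks would still have been called. By this estimate the missing call of 5277 lost and 10554 gained peaks stands for a change of more than 2-fold. The estimate scales the local background of the peak's own list by depth. It leaves out counting noise and the local background of the other list, whose part was not tested. For the other lost and gained peaks a smaller change would have been enough. The lists differ in depth (a background of 4.35 reads in aNPC and 3.74 in eA), its part in this difference was not tested, and the counts do not say that gains were larger than losses. With the height divided by 4, 0.418% of the lost and 1.20% of the gained peaks would still have been called. The neighbouring call of the other stage was seldom close: 74.8% of lost peaks and 77.7% of gained peaks lay more than 1 kb from any peak of the other list.

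Lost and gained peaks came in groups along the chromosomes. After a lost peak, the next aNPC peak within 10 kb was also lost in 64.2% of cases, against 26.3% after a kept peak. For gained peaks in eA these shares were 65.5% and 26.2%. The longest stretch without a kept peak held 12 lost peaks nearest to Camk1g, a kinase gene, at chr1:195170955-195212429. Stretches of 11 gained peaks lay nearest to Nfasc (neurofascin, chr1:134565412-134611496), Adamts8 (chr9:30759455-30793995), Pdgfb (platelet-derived growth factor B, chr15:79833872-79856606) and Daam2 (a formin of Wnt signalling, chr17:49652374-49686189), and at Gm13540 and Cacnb4 together (chr2:52433891-52459323). The share of peaks lost ranged from 37.5% on chromosome 11 to 47.2% on chromosome 12, and the share gained from 39.5% on chromosome 7 to 46.8% on chromosome 1.

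Lists that the sorting did not use showed how the sites were marked otherwise. Of the distal gained peaks, 63.7% (63.2–64.2) overlapped an H3K4me1 peak in aNPC and 84.0% did in eA, beside 92.9% and 91.3% of the distal kept eA peaks and 79.1% and 87.9% of all distal eA peaks. In detail, 60.7% carried H3K4me1 at both stages, 23.3% in eA only and 13.04% at neither. Distal lost peaks kept H3K4me1 more than they lost it: 70.8% overlapped an H3K4me1 peak in aNPC and 67.9% in eA, beside 82.1% and 79.8% of all distal aNPC peaks, with 61.7% at both stages, 9.13% in aNPC only and 23.0% at neither. By day 5, in late astrocytes (lA), 55.6% of the distal lost peaks still overlapped an H3K4me1 peak, while 15.8% (15.4–16.2) overlapped an H3K27ac peak again. Distal gained peaks were found again in lA in 60.3% of cases (59.7–60.8), and distal kept peaks in 82.4% of the aNPC list and 80.3% of the eA list. The background of the H3K27ac lists was 3.74 reads for eA, 4.35 for aNPC and 4.09 for lA, and its part in these shares was not tested.

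**Figure D2:**
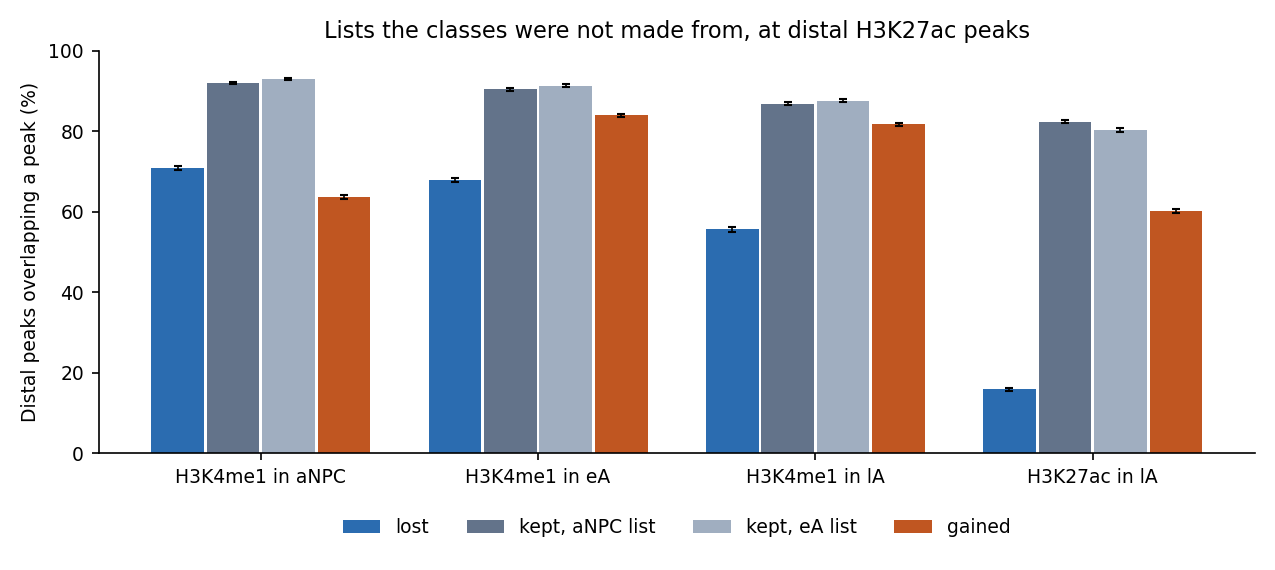
Bars give the share of distal lost, kept and gained H3K27ac peaks (%) that overlap a peak of each list not used in the sorting, with 95% Wilson intervals as error bars. Lost peaks stand at 15.8% for H3K27ac in lA and gained peaks at 60.3%, while for H3K4me1 in aNPC they stand at 70.8% and 63.7%.

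Height moved with these shares, so they are also given among peaks of like height. With a height of 10 or more, gained peaks overlapped H3K4me1 in aNPC in 76.2% of cases and H3K27ac in lA in 81.3%, against 54.4% and 40.5% for those under 5. Lost peaks of 10 or more overlapped H3K4me1 in eA in 76.0% of cases and H3K27ac in lA in 18.8%, against 60.1% and 13.1% for those under 5. The gap between lost and gained peaks in lA was therefore present in each class of height. Later H3K27ac also varied with H3K4me1 in eA. Among distal gained peaks, those with H3K4me1 in eA only were acetylated in lA in 67.6% of cases and those with it at both stages in 64.2%, against 37.9% of those with it in aNPC only and 33.9% of those with it at neither. The distal lost peaks that regained H3K27ac in lA were 20.7% of those with H3K4me1 at both stages, 23.7% of those with it in eA only, 4.84% of those with it in aNPC only and 4.96% of those with it at neither. At promoters 43.7% of gained peaks and 20.2% of lost peaks overlapped an H3K27ac peak in lA.

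Kept peaks were compared by height. Joining overlapping peaks of both stages gave 40502 kept regions, with a median log2 difference in height, eA minus aNPC, of 0.06. Of these, 5878 (14.5%) were at least 2-fold higher in eA and 6366 (15.7%) at least 2-fold lower. At promoters 12.4% were 2-fold higher and 4.60% lower, whereas at distal regions 15.0% were higher and 18.1% lower. Each height rests on 1 merged list and has no error.

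Through the nearest coding start site, 15365 genes had at least 1 peak. A peak was given to a gene when it lay at a promoter, in an exon or intron of any coding gene, or within 50 kb of the start site, which took in 69.5% of the lost and 79.4% of the gained peaks. Genes with more gained than lost peaks numbered 6355 (41.4%), and those with more lost than gained peaks 4106 (26.7%). The median of gained minus lost peaks over all these genes was 0. The largest excess of gained peaks lay at long genes. Glis3, which encodes a zinc finger transcription factor, had 50 gained peaks and 1 lost peak over a gene of 421 kb, and 10 of its 13 kept regions were 2-fold higher in eA. Nckap5 had 60 gained and 18 lost peaks. Palld, which encodes the actin-binding protein palladin, had 35 gained and 5 lost, and Shroom3 31 gained and 1 lost. Adamtsl1 (26 gained, 0 lost), Erbb4, a receptor of neuregulins (33 and 8), Sorbs2 (26 and 1), Ext1, an enzyme of heparan sulfate synthesis (29 and 5), Utrn, the dystrophin relative utrophin (32 and 9), and Lrtm1 (30 and 7) completed the first 10. At the other end Kirrel3, a cell adhesion gene of 551 kb, had 48 lost and 7 gained peaks and a median log2 difference of −1.94 over its 19 kept regions. Auts2 had 51 lost and 12 gained, Cdkal1 42 and 8, Cntn5, a contactin gene, 32 and 3, and Rptor, which encodes the mTORC1 subunit raptor, 32 and 3. Sema5a, a semaphorin gene (31 lost, 2 gained), Frmd4a (34 and 6), Ncald (33 and 6), Xylt1 (32 and 6) and Zbtb7c (30 and 4) followed. Gene length ranged from 15.4 kb (Lrtm1) to 1244 kb (Cntn5) among these 20 genes, and a long gene takes in more peaks by this rule.

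Promoters were also compared as whole windows. Of 21275 genes with a coding start site, 10552 had an H3K27ac peak over a promoter at both stages, 916 in eA only and 350 in aNPC only. The peak over such a promoter may still be a kept peak that meets the other stage outside the promoter: 90.4% of the gained and 76.6% of the lost promoters had a peak that overlapped none of the other stage. At the 916 gained promoters, 87.0% overlapped an H3K4me1 peak in aNPC and 38.9% an H3K27ac peak in lA, and at the 350 lost promoters 79.4% and 16.6% did. Among the gained promoters with the highest −log10 q were Ednrb, the endothelin receptor of astrocytes (chr14:104242464-104244091, height 43.3), Clcf1, a gp130 cytokine of the LIF family (chr19:4213891-4215350, height 49.2), and S100a11, a calcium-binding protein gene (chr3:93324408-93325174, height 31.3). The others were Tctn3 and Dync2li1, both genes of the primary cilium, Gpr111, Ccdc30, Trip6, the zinc transporter gene Slc39a12 and Ggta1. Clcf1 and Ednrb overlapped H3K4me1 in aNPC and H3K27ac in lA, and S100a11 overlapped neither. The lost promoters with the highest −log10 q were Nupr1, a stress response gene (chr7:133768172-133769123, height 59.5; 2 lost and 4 gained peaks in all), and Fgf21 and Fut1, which share 1 peak (chr7:52871142-52872976, height 69.4). Hfm1, Cox6a2, Kifc1, Cd180, Cit, Msh5 and Card9 followed, of which Cd180 and Card9 had an H3K27ac peak again in lA.

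Single peaks were ranked by −log10 q as well. The lost peak with the highest −log10 q lay 577 bp upstream of Pck2, the mitochondrial phosphoenolpyruvate carboxykinase (chr14:56158048-56159004), at a height of 121. It had no H3K27ac peak in lA but overlapped H3K4me1 at every stage. Glce (height 88.7), Nfe2l1 (154), Sesn2 (132), Arhgef2 (142), Ubr2 (72.2), Fbln2 (88.5), Dntt (98.2), Ddr1 (101) and Lmf1 (89.7) were nearest to the next lost peaks. The eA list had a peak 106 bp from the lost peak at Pck2 and 44 bp from that at Sesn2, so at these sites a call of the other stage lay close by, whereas the next eA peak was 12434 bp from that at Glce. Gained peaks were led by one 250 bp upstream of Rpp38 (chr2:3250023-3250308, height 68.2), with an aNPC peak 88 bp away. Traf1, an adaptor of TNF receptors (97.6), Bmp6, a BMP ligand (62.8), Samd12 (59.6), Hist1h2al (77.0), Mrpl33 (63.1), Tm4sf1 (49.7), Osbpl5 (57.2), Gpr111 (49.7) and 1700061J05Rik (66.8) followed. The aNPC peak nearest to the gained peak in Bmp6 was 125217 bp away.

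Genes were then read by role, in 17 lists chosen for the tissue and the signals of the media. Stat3, Junb, Acta2, Apoe, Sparcl1, Gjb6 and S100b are named after their values were seen, and the other members by a fixed rule on gained and lost peaks. Of EGF and FGF receptors with their feedback genes, the signals withdrawn at the start of differentiation, 11 of 18 had more lost than gained peaks, against 26.7% of all genes, and 5 had more gained, against 41.4%. The list had 97 lost and 47 gained peaks, with a median of gained minus lost peaks of −3. Of its 112 kept regions, 35 were at least 2-fold lower in eA and 9 higher, beside 15.7% and 14.5% of all kept regions. Etv5 (ENSMUSG00000013089.8), an ETS factor downstream of FGF, had 12 lost and 6 gained peaks. At the Etv5 kept region 402 bp downstream of the start site, the height was 121 in aNPC and 32.6 in eA, and at the one 70.3 kb upstream it was 158 and 21.4. In all, 12 of the 14 Etv5 kept regions were 2-fold lower, and the remaining 2, both farther downstream, were 2-fold higher. Etv1 had 15 lost and 3 gained peaks, Spred1, an inhibitor of the cascade, 11 and 2, and Egfr, the EGF receptor, 8 and 1. The FGF receptor genes, named after their values were seen, had more gained peaks: Fgfr1 had 3 gained and 1 lost, Fgfr2 9 and 7, and Fgfr3 3 and 0 with 3 of 5 kept regions 2-fold higher.

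Of the 15 LIF receptor, JAK and STAT genes, 9 (60%, beside 41.4% of all genes) had more gained peaks and 3 (20%, beside 26.7%) more lost (45 gained, 20 lost, median 2). Of their 54 kept regions, 8 were at least 2-fold higher and 8 lower, near the 14.5% and 15.7% of all kept regions. Stat3, the transcription factor of the pathway, had 1 lost and 0 gained peaks, and 3 of its 5 kept regions were 2-fold lower. Socs3 (ENSMUSG00000053113.3), the feedback inhibitor of gp130 signalling, had 4 gained and 2 lost peaks. Height at the Socs3 promoter was 23.5 in aNPC and 54.8 in eA, and at the kept region 46.2 kb downstream it was 4.60 and 48.9. Of the 7 kept regions at Socs3, 6 were 2-fold higher in eA. Bcl3 (ENSMUSG00000053175.9), an atypical inhibitor of NF-κB and a STAT3 target, had 0 peaks in aNPC and 6 in eA, with heights from 8.82 to 23.8, all of which overlapped an H3K27ac peak in lA. The kinase gene Jak1 had 10 gained and 0 lost peaks and Jak2 6 gained and 1 lost. The receptor gene Lifr went the other way, with 8 lost and 3 gained, and 4 of its 10 kept regions were 2-fold lower. The member Cebpd was not found in the annotation.

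AP-1 and immediate-early genes, which encode factors that growth factors and cytokines induce quickly, had more gained peaks at 10 of 15 members (66.7%, beside 41.4% of all genes) and more lost at 0 (beside 26.7%), with 30 gained, 10 lost and a median of 1. With both lists cut at a −log10 q of 5, 3 members had more lost peaks. Mafk, a small Maf factor, had 5 gained and 0 lost peaks, and Ier2 6 gained and 2 lost. Fosb (2 gained, 0 lost) had 3 of its 5 kept regions 2-fold higher and Junb (2 gained, 0 lost) 2 of 3, while Jun (3 gained, 1 lost) had 4 of 9 2-fold lower. SRF and Hippo effectors and targets are the genes of the cytoskeleton and of YAP and TAZ. Of 18 members, 12 (66.7%, beside 41.4% of all genes) had more gained peaks. More lost peaks were found at 4 (22.2%, beside 26.7%), with 105 gained, 44 lost and a median of 2. Wwtr1, which encodes TAZ, had 15 gained and 2 lost peaks, Amotl2 12 and 1, Filip1l 13 and 4, and Lats2, a Hippo kinase gene, 9 and 0. Acta2, smooth muscle actin, had 0 peaks in aNPC and 7 in eA, the tallest at a height of 44.1.

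Astrocyte genes had more gained peaks at 16 of 22 members (72.7%, beside 41.4% of all genes) and more lost at 4 (18.2%, beside 26.7%), with 73 gained, 25 lost and a median of 1.5. Aqp4 (ENSMUSG00000024411.8), the water channel of astrocyte endfeet, had 18 gained and 0 lost peaks, the tallest 29.7 kb upstream at a height of 39.3. Its 4 kept regions had heights of 7.36, 7.13, 10.1 and 6.67 in aNPC and 29.1, 26.7, 57.0 and 27.5 in eA, so every one was more than 2-fold higher. At 18 of 18 gained Aqp4 peaks H3K4me1 was present in eA, and at 10 of them it was present in aNPC. Gained Aqp4 peaks lay up to 148.7 kb upstream, and the farthest kept region 87.9 kb upstream. Any beyond 50 kb were counted only because they lay in an exon or intron of a coding gene. Gfap (ENSMUSG00000020932.8), the astrocyte intermediate filament gene, had 1 gained peak at a height of 41.4, and its kept regions went from 13.8 to 119 at the promoter and from 12.2 to 75.1 upstream of it. Apoe, the main lipid carrier of the brain, had 0 peaks in aNPC and 3 in eA, with heights of 14.7, 10.96 and 15.5. Cd44 had 9 gained and 1 lost peak, Acsbg1 8 and 1, and Slc1a3, the glutamate transporter GLAST, 7 and 2. The 4 members with more lost peaks were Cbs (4 lost, 0 gained), Sparcl1 (4 and 1, all 4 kept regions 2-fold lower), Gjb6 (3 and 0, no eA peak) and S100b (2 and 0, its kept region 2-fold lower).

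**Figure D3:**
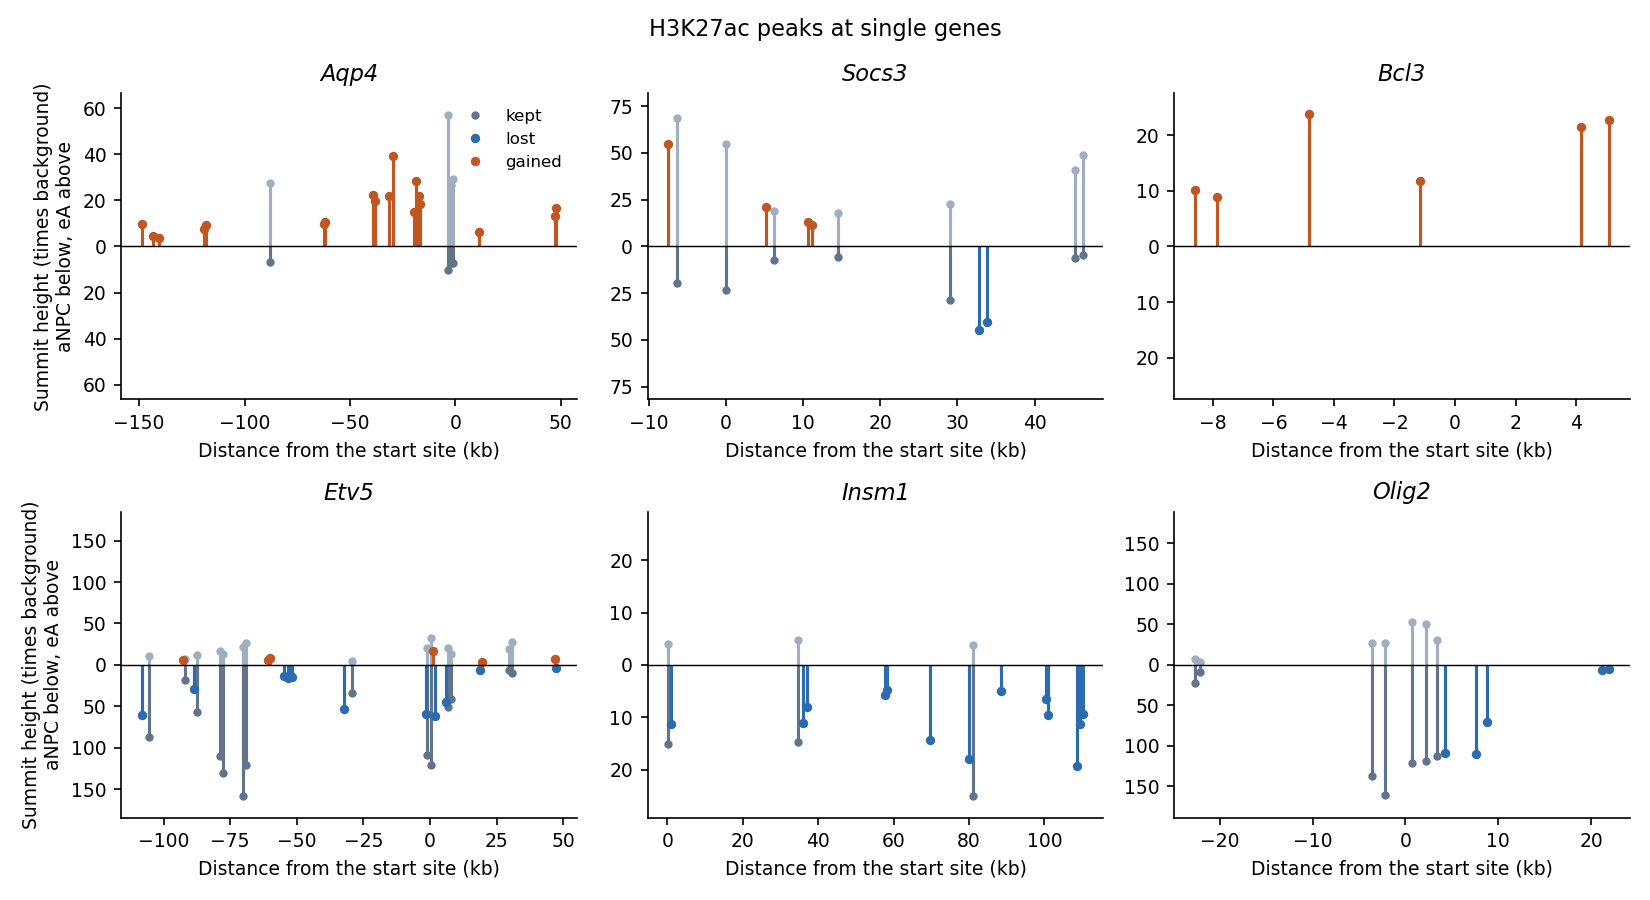
Each stem is an H3K27ac peak, or a kept region in grey, at its distance from the nearest start site (kb), with its height over the background upward for eA and downward for aNPC, for Aqp4, Socs3, Bcl3, Etv5, Insm1 and Olig2 on separate scales. Aqp4 and Bcl3 show gained peaks (18 and 6) and no lost peak, while Insm1 and Olig2 show lost peaks (13 and 5) and no gained peak.

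Gliogenic factors had more gained peaks at 9 of 14 members (64.3%, beside 41.4% of all genes) and more lost at 3 (21.4%, beside 26.7%). They had 109 gained and 79 lost peaks and a median of 1.5, and the NFI family was split. Zbtb20 had 34 gained and 20 lost peaks and Nfia 24 and 16, whereas Nfib had 13 gained and 24 lost, with 8 of its 30 kept regions 2-fold lower and 2 higher. Runx2 had 11 gained and 4 lost. Among BMP and TGF-beta genes, 13 of 25 (52.0%, beside 41.4% of all genes) had more gained and 7 (28.0%, beside 26.7%) more lost peaks, with 99 gained, 63 lost and a median of 1. Smad6, an inhibitor that BMP signals induce, had 12 gained and 0 lost peaks and all 6 kept regions 2-fold higher. Bmpr1b, a BMP receptor gene, had 10 gained and 2 lost with 4 of 6 kept regions 2-fold higher, but Smad3 (3 gained, 11 lost) and Smad5 (3 gained, 10 lost), which carry the signals to the nucleus, did not share this balance. Bmp4 and Grem1 had no peak at either stage. The Notch list had 6 of 16 members (37.5%) each way, beside 41.4% of all genes with more gained and 26.7% with more lost. It had 30 gained and 36 lost peaks and a median of 0. For more than 2-fold it had 5 members with more gained and 2 with more lost peaks, beside 4131 and 1802 of all genes. In that list 22 of the 61 kept regions were 2-fold lower against 6 higher, beside 15.7% and 14.5% of all kept regions. Jag1, a Notch ligand gene, had 11 lost and 1 gained peak with 8 of 8 kept regions 2-fold lower. Hes1, a Notch target gene, had 7 gained and 4 lost with 5 of 6 kept regions 2-fold lower, Notch2 7 gained and 3 lost, and Heyl 1 gained and 4 lost.

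The oligodendrocyte and proneural lists had more lost than gained peaks. Oligodendrocyte lineage genes had more lost peaks at 8 of 13 members (61.5%, beside 26.7% of all genes). More gained peaks were found at 3 (23.1%, beside 41.4%), with 43 lost, 24 gained and a median of −1. Of 39 kept regions 24 were 2-fold lower and 1 higher, beside 15.7% and 14.5% of all kept regions. Olig2 (ENSMUSG00000039830.8), a factor of oligodendrocyte and motor neuron fate, had 5 lost and 0 gained peaks, with heights of 109, 110 and 69.9 for the 3 nearest to the gene. All 7 Olig2 kept regions were 2-fold lower, from 161 to 26.7 at the one 2.25 kb upstream. The Olig2 lost peak 4.32 kb downstream lay 132 bp from an eA peak. Olig1 had 7 lost and 1 gained peak with 7 of 8 kept regions 2-fold lower, and Nkx2-2 6 lost and 1 gained. Mbp, a myelin gene, had 6 gained and 1 lost. Mag and Gpr17 had no peak. Proneural and neuronal lineage factors had more lost peaks at 10 of 17 members (58.8%, beside 26.7% of all genes). More gained peaks were found at 5 (29.4%, beside 41.4%), with 66 lost, 40 gained and a median of −1. Insm1 (ENSMUSG00000068154.4), a zinc finger factor of neuronal progenitors, had 13 lost and 0 gained peaks. The nearest lay 1.035 kb downstream and the others 35.9 to 110.1 kb downstream, for the most part in introns, not necessarily its own. Those beyond 50 kb were counted only because they lay inside a coding gene. Heights at the 3 Insm1 kept regions were 15.2, 14.7 and 25.1 in aNPC and 4.01, 4.81 and 3.74 in eA. Myt1 had 8 lost and 1 gained and Sox11 6 lost and 0 gained, while Atoh1 had 12 gained and 8 lost peaks. Neurog2 and Dlx5 had no peak. Counting only the missing calls that stand for more than 2-fold reversed both lists. The members with more gained and more lost peaks became 7 and 2 for the proneural list and 5 and 3 for the oligodendrocyte list. Over all genes the same counts were 4131 and 1802.

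Neural progenitor genes had more gained peaks at 8 of 15 members (53.3%, beside 41.4% of all genes) and more lost at 3 (20%, beside 26.7%), with 55 gained, 38 lost and a median of 1, a balance that turned in 4 of 9 alternatives. It became 4 and 5 when both lists were cut at a −log10 q of 5, 5 and 7 when the changed peak alone was, 6 and 7 with the nearest start site at any distance, and 2 and 3 for more than 2-fold. Gli3, a Hedgehog effector gene, had 9 gained and 2 lost peaks, Prom1 5 and 0, Msi2 17 and 14, and Pax6 4 and 1. Sox1 was not found in the annotation. Of 23 cell cycle genes, 8 (34.8%, beside 41.4% of all genes) had more gained and 6 (26.1%, beside 26.7%) more lost peaks, with 28 gained, 27 lost and a median of 0. Of their 56 kept regions 17 were 2-fold lower and 3 higher, beside 15.7% and 14.5% of all kept regions. Cdk6 had 5 lost and 0 gained peaks and Ccnd2, cyclin D2, 4 lost and 0 gained with 3 of 4 kept regions 2-fold lower, whereas Cdkn1c, a cyclin-dependent kinase inhibitor gene, had 4 gained and 1 lost and Mki67 3 and 0. Matrix and adhesion genes had more gained peaks at 10 of 19 members (52.6%) and more lost at 7 (36.8%), both shares above those of all genes, with 77 gained, 56 lost and a median of 1. Col4a2 had 13 lost and 2 gained, and Timp3, a metalloproteinase inhibitor gene, 16 gained and 6 lost. Sparc had 9 lost and 2 gained, and Lox and Mmp14 had no peak.

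Reactive and inflammatory genes had more gained peaks at 12 of 14 members (85.7%, beside 41.4% of all genes). More lost peaks were found at 1 (7.14%, beside 26.7%), with 45 gained, 13 lost and a median of 2. Of 24 kept regions 7 were 2-fold higher and 0 lower, beside 14.5% and 15.7% of all kept regions. For more than 2-fold, 5 members had more gained and 2 more lost peaks, beside 4131 and 1802 of all genes. Nfkb1, an NF-κB subunit gene, had 12 gained and 2 lost peaks, S1pr3, a sphingosine phosphate receptor gene, 6 and 0, and Nfkbia, an NF-κB inhibitor gene, 5 and 2. Tnfaip3 had 7 lost and 1 gained, and Icam1 had no peak. Neuronal genes had more gained peaks at 9 of 13 members with a peak (69.2%, beside 41.4% of all genes). More lost peaks were found at 4 (30.8%, beside 26.7%), with 35 gained, 25 lost and a median of 2. Rbfox3, which encodes the neuronal protein NeuN, had 0 peaks in aNPC and 7 in eA, with heights from 3.48 to 10.7, of which 3 overlapped an H3K27ac peak in lA. Stmn2 had 0 peaks in aNPC and 4 in eA, the tallest at 20.05. Syt1 had 10 lost and 1 gained and Camk2a 5 lost and 8 gained. Slc17a6, Slc32a1, Grin1 and Nefm had no peak, and Map2 was not found in the annotation. Markers of cells that the cultures should not hold had peaks too, beside 15365 of 21275 among all coding genes. Of 9 pluripotency genes 5 had a peak, with more lost peaks at 3 and more gained at 2 (7 gained, 10 lost, median −1), and Pou5f1, Zfp42, Dppa4 and Fgf4 had none. Esrrb had 6 lost and 0 gained peaks, Klf4 2 lost and 0 gained and Tdgf1 2 gained and 0 lost, and Nanog had 4 gained peaks, the tallest at 8.29. Of 12 microglial, endothelial and fibroblast markers 8 had a peak (6 gained, 14 lost, median −1), 5 with more lost and 3 with more gained, and Aif1, Cx3cr1, Itgam and Lum had none. Tek had 5 lost and 1 gained peak, Cdh5 4 and 1, Ptprc 3 and 0, and Pdgfrb 2 gained and 0 lost. Their part in the changes at other genes was not tested.

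**Figure D4:**
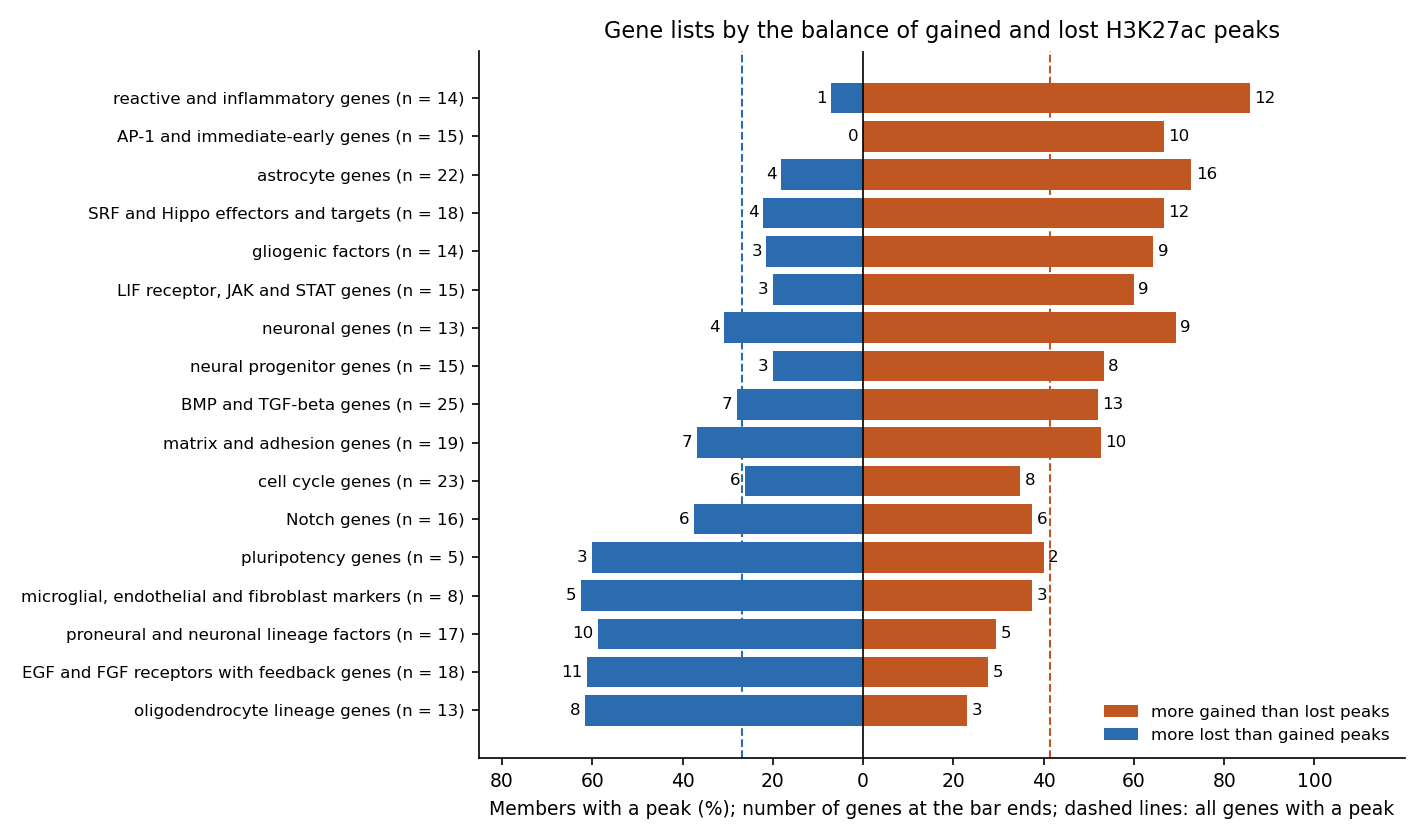
Bars give the share of the members with a peak (%) that had more gained than lost peaks, to the right, and more lost than gained peaks, to the left, with the number of genes at the bar ends and dashed lines at 41.4% and 26.7% for all genes with a peak. Reactive (12 of 14), astrocyte (16 of 22) and neuronal genes (9 of 13) reach farthest to the gained side, and the bars of the other cell types (5 of 8), oligodendrocyte (8 of 13) and EGF and FGF genes (11 of 18) reach farthest to the lost side.

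Several of the strongest lost sites lay at genes of the amino acid response, in which the factor ATF4 with C/EBP partners turns on transporters and enzymes of amino acid supply. A list of 26 such genes was drawn up after the lost peaks at Pck2, Sesn2, Nupr1 and Fgf21 had been seen, so its direction is no independent evidence. Of these 26 genes 11 (42.3%, beside 26.7% of all genes) had more lost peaks and 6 (23.1%, beside 41.4%) more gained. They had 56 lost and 39 gained peaks and a median of 0. Of their 72 kept regions 32 were at least 2-fold lower in eA and 6 higher, beside 15.7% and 14.5% of all kept regions. Slc7a11, the cystine transporter gene, had 10 lost and 1 gained peak, and Vldlr 10 and 3. At Trib3, a pseudokinase gene that ATF4 induces, all 3 kept regions were 2-fold lower, with a median log2 difference of −3.04. Of further members chosen for the lowest medians, the kept regions of Slc7a1 had a median of −2.79, that of Pck2 −2.46, that of Asns, asparagine synthetase, −2.10 and that of Aldh1l2 −2.07, although Asns had 2 gained and 0 lost peaks. Nupr1, too, had 4 gained peaks beside its 2 lost ones. Slc3a2 ran the other way, with 6 gained and 0 lost peaks and 3 of 7 kept regions 2-fold higher.

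Short motifs were matched exactly on both strands around the summits. The letters were TGANTCA for AP-1, GGAATG for TEAD factors, TTGGCA for the NFI half-site, TTCCNGGAA for STAT, TGATGNAA for the ATF4 response element, CAGATG for the E-box of Neurod factors, TGTGGT for RUNX, CCATTGT for SOX, TAATTA for homeobox factors, CCGGAAG for ETS, TGACGTCA for CRE and ATGCAAAT for POU factors. The full NFI site, the CArG box of SRF and the RFX site were also searched by name. In 200 bp around the summit, AP-1 matched 7.03% of gained and 6.58% of lost windows, beside 5.72% of all eA and 5.85% of all aNPC windows. The ATF4 element, added after the lost peaks had been seen, matched 3.93% of lost and 2.73% of gained windows, beside 2.92% and 2.47% of all aNPC and eA windows. With 500 bp the AP-1 shares were 19.99% of gained and 15.6% of lost windows and the ATF4 shares 7.09% and 10.8%. RUNX matched 14.2% of gained and 15.1% of lost windows of 200 bp, SOX 2.85% and 3.04%, the NFI half-site 12.7% and 12.02%, STAT 0.725% and 0.671%, and homeobox 4.35% and 4.08%. Base composition was close, with a median GC content of 47.5% in gained and 47.0% in lost windows, but 51.5% in kept windows at either stage, so kept windows are less alike.

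Placed by distance, matches of several motifs gathered some 200 to 400 bp to either side of the summit. That range was chosen after the profile had been seen, and the positions 800 to 1000 bp from the same summits serve as its background. At distal gained peaks, AP-1 matched 19.4% of the near ranges and 12.5% of the far ranges, a ratio of 1.55, whereas at distal lost peaks it matched 12.7% and 12.1% (1.05). The kept peaks of eA had a ratio of 1.27. TEAD sites matched 27.4% and 21.4% at gained peaks (1.28) and 20.5% and 21.1% at lost peaks (0.97). STAT sites were few but had the same order, with 1.97% and 1.17% at gained peaks (1.68) and 1.19% and 1.22% at lost peaks (0.98). Turned the other way, the ATF4 element matched 9.21% of the near and 6.89% of the far ranges of lost peaks (1.34), and 6.25% and 6.48% at gained peaks (0.96). ETS had a ratio of 1.40 at lost and 0.93 at gained peaks, both below the kept peaks of aNPC (2.25) and eA (2.39), and the Neurod E-box 1.12 and 1.00. The NFI half-site was raised in every class, with ratios of 1.49 at gained, 1.30 at lost, 1.46 at kept aNPC and 1.49 at kept eA peaks. The full NFI site had another order, 4.23 at lost, 3.64 at kept aNPC, 2.58 at kept eA and 2.36 at gained peaks, on 55 near and 13 far matches at lost and 33 and 14 at gained peaks. RFX had ratios of 3.48 at gained and 1.58 at lost peaks, on 146 and 42 matches and on 84 and 53, with 3.76 and 4.14 at the kept peaks of aNPC and eA. RUNX, the motif of Runx2, was not raised at gained (0.99) or lost peaks (0.95). With a height of 10 or more the ratios were 1.62 for AP-1, 1.43 for TEAD and 2.30 for STAT at gained peaks, and 1.66 for the ATF4 element at lost peaks. A match is a stretch of letters, not a bound site, and neighbouring peaks share sequence ranges.

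**Figure D5:**
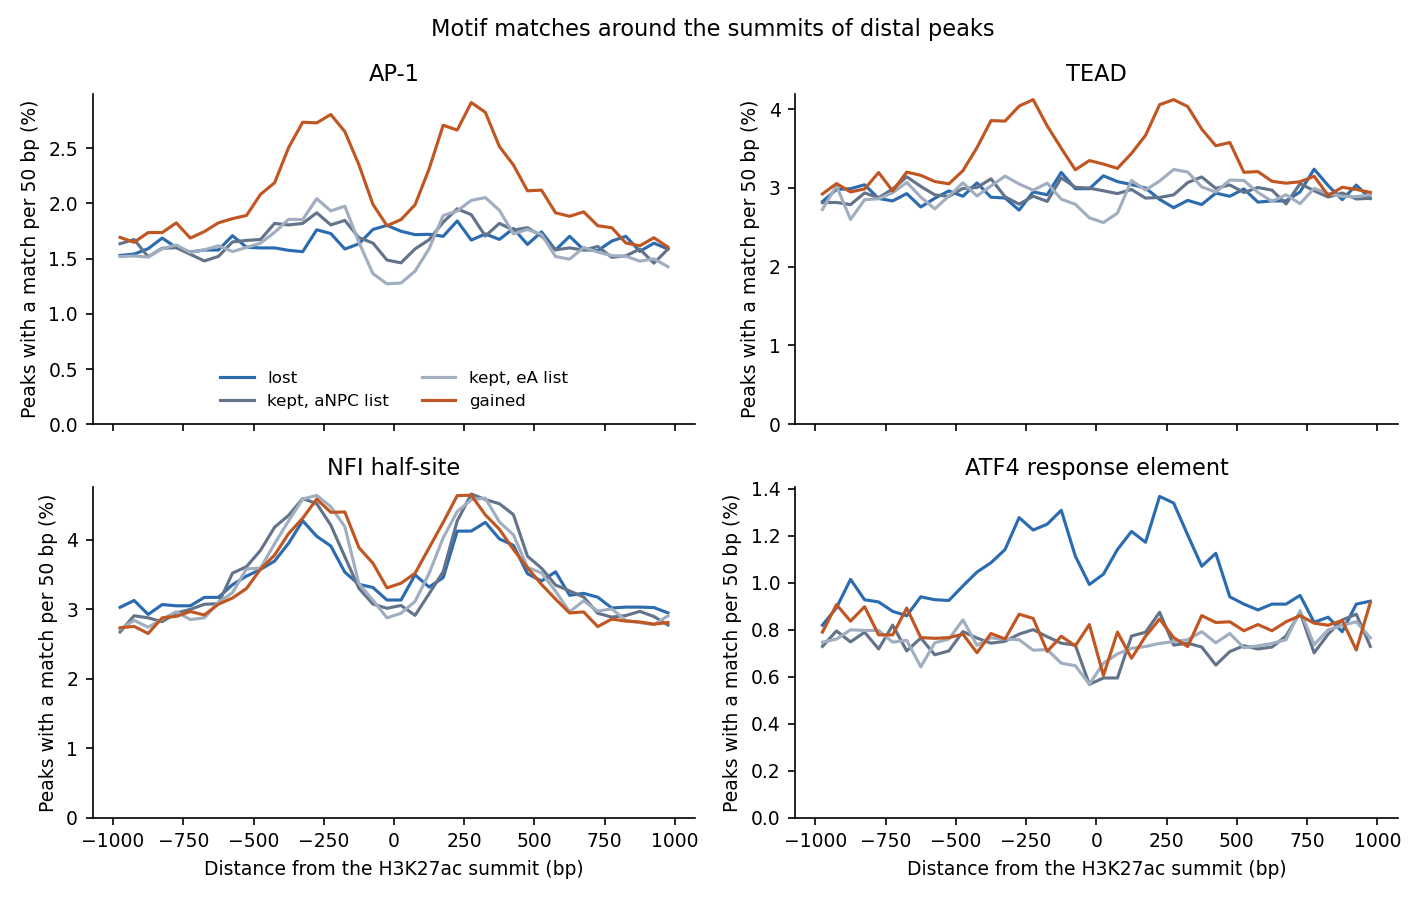
Lines give the share of distal peaks (%) with a match of each motif per step of 50 bp, by distance from the H3K27ac summit, for lost, kept and gained peaks, without intervals. AP-1 and TEAD matches rise on both sides of the summit at gained peaks (ratios of 1.55 and 1.28 between 200 to 400 bp and 800 to 1000 bp), ATF4 elements at lost peaks (1.34), and NFI half-sites in every class.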

How the data were processed

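Chromatin of aNPC, eA (day 1) and lA (day 5) had been immunoprecipitated for H3K27ac and H3K4me1. The authors aligned unique reads to mm9 with Bowtie, merged 2 replicates per stage with SAMtools 0.1.19 (submitters' processing notes) and called peaks with MACS2 without an input. The deposited lists give for each peak a fold ratio over the local background, −log10 p and −log10 q at the summit, and a whole-number score, 10 times the −log10 q, which was not used. Total reads per sample are not given in the sources used here. The number of reads at each summit was solved from the deposited fold and −log10 p (tolerance 0.001); 7 aNPC and 2 eA peaks had no solution. This measure, the half-height rule, the amino acid response list, the ATF4 motif and the range of 200 to 400 bp were chosen after seeing the data, and all members and lists with earlier results of these data known. Peaks were joined at an overlap of 1 bp or more and given to the nearest of 44018 coding start sites. Named are up to 4 members per list with the largest difference of gained and lost peaks, members with no peak where these were 5 or fewer (with 1 exception, not reported here), the 10 genes, 10 peaks and 10 promoters at each extreme, and Gfap, Aqp4 and Rbfox3. Socs3 and Cbs are named through their sequences, the strongest lost peaks of their lists. No peak lay past a chromosome end of the mm9 sequence. Scripts ran in Python 3.11.15 with NumPy 2.4.6, pandas 2.3.3, SciPy 1.17.1 and pysam 0.24.0 and were tested on simulated data. With 1 merged list per stage, no test between stages was possible. The RNA samples (8 of 51 samples could not be assigned to a group) were not used here.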

Additional observations from a re-analysis of the deposited data

How the results depend on the processing

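No paired analysis was possible because the replicates were merged before peaks were called, and for the same reason no replicate could be left out. The limits are those of peak calls: a missing call depends on depth, 1 list per stage gives no error, and nearest genes are not shown to be targets. Over all alternatives 38 values stayed within their interval or within 1.5 times the count and 56 did not, and the cause was not tested. The lost count was 21097 when lost peaks needed a −log10 q of at least 5 against the whole eA list. Only changes of more than 2-fold left 5277 lost and 10554 gained peaks, 4131 genes with more gained and 1802 with more lost peaks. The shares of lost and gained peaks at promoters were 3.47% and 4.61% with both lists cut at a −log10 q of 5, 3.28% and 4.495% with it in the changed peak alone, 3.16% and 4.40% with 50% of the peak covered, 1.16% and 2.56% with no peak of the other list within 1 kb, 3.85% and 7.52% with promoters of 1 kb on either side, and 3.66% and 4.36% for more than 2-fold. The shares of lost peaks with H3K4me1 in eA and H3K27ac in lA, and of gained peaks with H3K4me1 in aNPC and H3K27ac in lA, were in this order 75.8%, 21.3%, 72.5% and 69.4% with both lists cut at a −log10 q of 5, 73.1%, 17.3%, 69.9% and 68.55% with it in the changed peak, 68.4%, 16.6%, 65.5% and 61.5% with equal numbers of peaks, 71.5%, 21.9%, 67.2% and 60.9% by summit, 73.0%, 24.3%, 68.2% and 62.2% with 50% covered, 65.4%, 11.4%, 60.95% and 60.96% with the distance of 1 kb, and 83.8%, 20.6%, 79.1% and 82.8% for more than 2-fold. AP-1 matched 15.6% of lost and 19.99% of gained windows of 500 bp, 6.19% and 6.09% of windows of 200 bp at distal peaks with a height of 10 or more, and 12.7% and 19.4% of the ranges 200 to 400 bp from the summit. The ATF4 element matched 10.8% of lost and 7.09% of gained windows of 500 bp, 3.16% of lost windows at a height of 10 or more, and 9.21% and 6.25% of the ranges. The direction of 11 of the 17 lists was the same in all 9 alternatives. Cell cycle genes turned to 7 members with more gained and 9 with more lost peaks with both lists cut at a −log10 q of 5, and to 9 and 10 with 50% covered, and pluripotency genes to 2 and 0 for more than 2-fold. Notch genes turned from 6 each to 6 with more gained and 8 with more lost peaks by summit, 6 and 7 with 50% covered, and 5 and 7 with the distance of 1 kb. For more than 2-fold the members with more gained and more lost peaks were 11 and 1 for astrocyte, 6 and 2 for gliogenic, 5 and 0 for AP-1, 7 and 2 for LIF, 5 and 7 for EGF and FGF, 10 and 0 for SRF and Hippo, 13 and 3 for BMP and TGF-beta, 8 and 2 for neuronal, and 9 and 3 for matrix genes.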
